A study of Mus musculus with 6 samples.

Results

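The EGR, NR4A and IER early genes are 8 genes, Egr1, Egr2, Egr3, Nr4a1, Nr4a2, Nr4a3, Ier2 and Ier3 that respond fast to stimuli, found here as every probe set whose annotated symbol is exactly one of these names. They are 8 of 18193 measured genes and have 17 of 45037 probe sets. Affymetrix arrays measured the RNA of 6 mouse mesenchymal stem cell (MSC) cultures, started from cells bought from a supplier. In each of 3 independent experiments 1 culture was irradiated for 2 h with broadband terahertz pulses (35 fs, centred near 10 THz, 1 kHz, 1 mW/cm2), and 1 unirradiated control culture stood beside it at the same 26 to 27 °C. All 6 cultures, controls too, were in medium with 5% serum to which dexamethasone (1 µM), IBMX (100 µM), insulin (5 µg/ml) and rosiglitazone (1 µM), together a mix that drives fat cell formation, had been added again 48 h earlier, and RNA was taken directly after the exposure. The labels do not give the strain of the cells, nor the number of donor animals. Where experiments are set side by side below, experiment 3 is given before 2 and 1, and within each the irradiated culture before its control.

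Immediate early genes are transcribed within minutes of a stimulus without new protein synthesis, and their mRNAs are short-lived. Growth factor signals reach them largely through ERK kinases and the factor SRF, which binds the CArG box, and cAMP signals through the factor CREB, which binds the cAMP response element (CRE). IBMX, a phosphodiesterase inhibitor, slows the breakdown of cAMP. EGR proteins are zinc finger transcription factors, NR4A proteins are orphan nuclear receptors that bind the NBRE sequence, and IER2 and IER3 are small nuclear and membrane-associated proteins induced with them. In cultured mouse preadipocytes Egr2, also called Krox20, is known to promote fat cell formation.

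The promoters of the NR4A genes carry a cluster of CRE core letters, and they are shown with those of Egr2 and Ier3, the other members with a window used here. Windows of 250 bases before a RefSeq transcription start (GRCm38.p6) were used for 5 of the 8 genes, and not for Egr1, Egr3 and Ier2. Sequences run 5′ to 3′ on the gene's strand, and capitals mark matches on either strand to the CRE TGACGTCA, its core TGACG, the CArG box, the EGR site GCGNGGGCG or the NBRE AAAGGTCA. The windows are chr15:101266596-101266845 (+) for Nr4a1, chr2:57124004-57124253 (-) for Nr4a2, chr4:48045055-48045304 (+) for Nr4a3, chr10:67537619-67537868 (+) for Egr2 and chr17:35821463-35821712 (+) for Ier3.
Nr4a1: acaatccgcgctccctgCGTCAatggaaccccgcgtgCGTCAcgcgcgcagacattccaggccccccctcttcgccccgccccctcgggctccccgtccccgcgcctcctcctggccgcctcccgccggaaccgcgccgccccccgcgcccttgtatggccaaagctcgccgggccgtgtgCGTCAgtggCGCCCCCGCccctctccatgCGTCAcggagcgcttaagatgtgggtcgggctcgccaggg
Nr4a2: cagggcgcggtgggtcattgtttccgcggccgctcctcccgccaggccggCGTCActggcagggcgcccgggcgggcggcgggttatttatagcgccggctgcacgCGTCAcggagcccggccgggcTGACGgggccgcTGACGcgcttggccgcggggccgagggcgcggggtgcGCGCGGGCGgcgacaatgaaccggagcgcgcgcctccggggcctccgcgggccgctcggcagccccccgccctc
Nr4a3: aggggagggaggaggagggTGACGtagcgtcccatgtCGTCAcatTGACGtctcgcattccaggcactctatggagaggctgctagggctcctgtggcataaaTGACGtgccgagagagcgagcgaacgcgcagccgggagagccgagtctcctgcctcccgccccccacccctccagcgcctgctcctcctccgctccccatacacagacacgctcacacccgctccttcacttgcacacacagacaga
Egr2: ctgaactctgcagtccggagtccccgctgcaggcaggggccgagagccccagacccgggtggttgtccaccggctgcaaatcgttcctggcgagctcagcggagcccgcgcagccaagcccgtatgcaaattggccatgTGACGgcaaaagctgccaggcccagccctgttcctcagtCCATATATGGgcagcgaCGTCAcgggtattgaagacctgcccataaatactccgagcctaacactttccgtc
Ier3: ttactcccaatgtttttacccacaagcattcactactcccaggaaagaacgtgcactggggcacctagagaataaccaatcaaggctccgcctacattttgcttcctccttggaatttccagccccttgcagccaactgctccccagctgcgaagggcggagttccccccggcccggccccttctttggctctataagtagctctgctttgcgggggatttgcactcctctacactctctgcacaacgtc
Each NR4A window held 4 copies of the core TGACG and 0 full CREs. In Nr4a1 their first bases lay at -233, -213, -69 and -40 from the start, in Nr4a2 at -200, -144, -123 and -111, and in Nr4a3 at -231, -213, -205 and -147. The core was found at least once in 17.8% of 32851 promoter windows of this length and at least 4 times in 0.137%, and the count of 4 was taken as the mark after it was seen in these genes. Egr2 has 5 listed starts. The window shown for it, 1 of 3 that overlap, held 2 cores and 1 CArG box, which 1.47% of windows hold. Of its windows that do not overlap these, chr10:67537316-67537565 held 1 CArG box and 0 cores. The window chr10:67535249-67535498 held none of the 5 motifs. Nr4a1 and Nr4a2 each held 1 EGR site (4.7% of windows), none of the 5 shown held an NBRE (1.34%), and the Ier3 window held none of the 5 motifs. These letters are a description of the windows and not evidence that a factor binds there.

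The 8 genes were far higher in experiments 3 and 2 than in experiment 1, in the irradiated and the control cultures alike. Each gene is described by its brightest probe set, that with the highest mean over the 6 arrays, and all levels are log2 RMA values. A test between experiments sets the 2 cultures of 1 experiment against the 2 of another. Its p measures the difference against the spread left within pairs, not against the spread between repeated experiments. In experiment 3 against experiment 1 the 8 genes were 3.34-fold (Egr1) to 9.61-fold (Ier3) higher, and all 8 passed the test (limma adjusted p from 0.000443 to 0.0109). Of all 45037 probe sets, 1.87% passed as higher and 1.18% as lower in that comparison. In experiment 2 against experiment 1 they were 3.01-fold (Egr1) to 6.11-fold (Nr4a2) higher, again all 8 past the test (adjusted p from 0.00302 to 0.0298), where 0.473% of all probe sets passed as higher and 0.0466% as lower. Between experiments 3 and 2 the genes differed by 1.05-fold to 1.64-fold and 0 of 8 passed, where 0.0355% of all probe sets passed as higher and 0% as lower. Between irradiated and control cultures 0 of 8 passed, and 0% of all probe sets did.

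**Figure D1:**
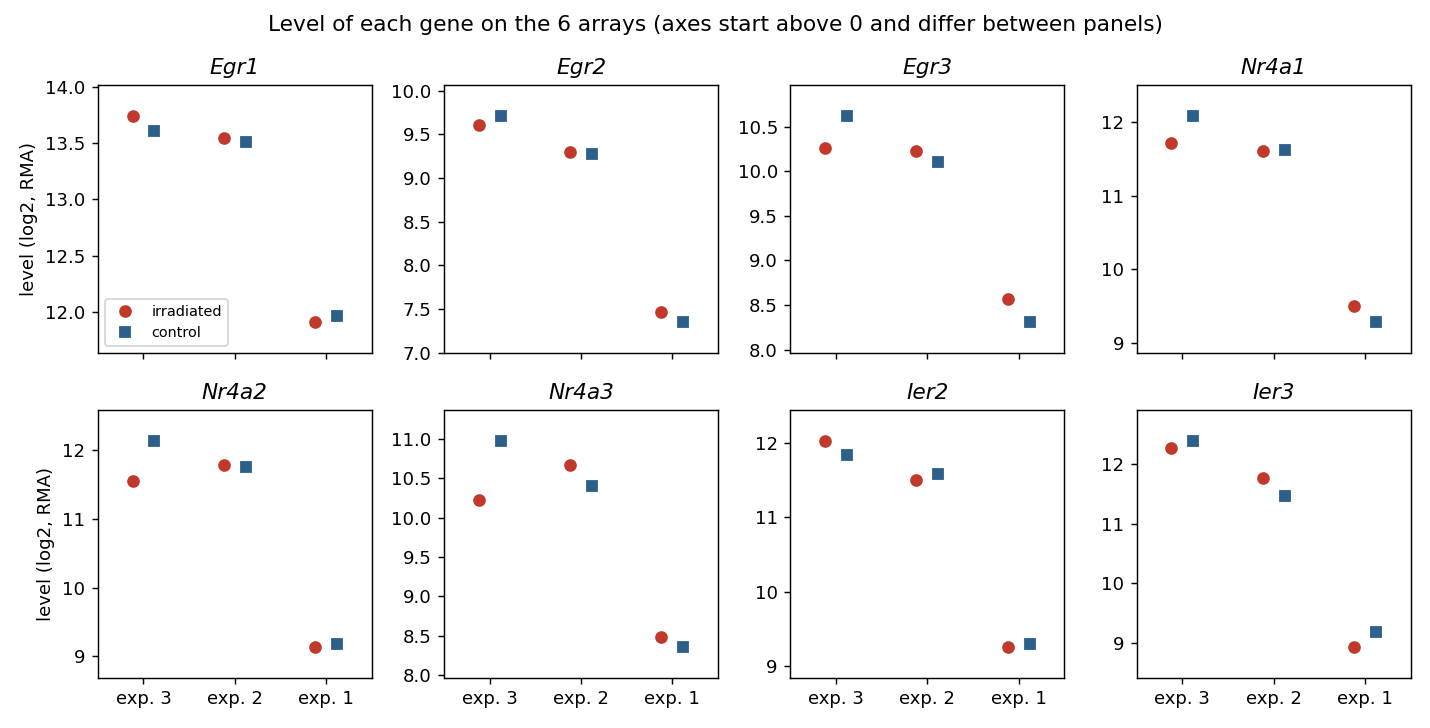
Log2 RMA levels of the 8 genes on each of the 6 arrays, 1 panel per gene, with red circles for irradiated and blue squares for control cultures of experiments 3, 2 and 1. In every panel the 4 cultures of experiments 3 and 2 lie above both cultures of experiment 1, by at least 1.53.

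Among the EGR genes, Egr1, a broad activator of growth factor responses, had log2 levels of 13.74 in the irradiated and 13.61 in the control culture of experiment 3, 13.54 and 13.51 in experiment 2, and 11.91 and 11.96 in experiment 1. Both cultures of experiment 1 lay below all 4 others, and the irradiated and control cultures of an experiment differed by at most 0.13. The level was higher in experiment 3 than in experiment 1 by 1.74 ± 0.10 (SE of the fit, 2 cultures per experiment; limma adjusted p = 0.00106) and in experiment 2 than in experiment 1 by 1.59 ± 0.10 (adjusted p = 0.00446). Egr2 had 9.6 in irradiated and 9.71 in control culture 3, against 9.3 and 9.27 in experiment 2 and 7.46 and 7.35 in experiment 1. Its cultures of 1 experiment differed by at most 0.11, the smallest such spread of the 8 genes, and it was higher by 2.25 ± 0.10 in experiment 3 and by 1.88 ± 0.10 in experiment 2 than in experiment 1. Egr3, known in mice for its need in muscle spindle development, had 10.26 in irradiated and 10.62 in control culture 3, 10.23 and 10.1 in experiment 2, and 8.57 and 8.31 in experiment 1. The groups did not overlap between experiment 1 and the others, but in experiment 3 the irradiated culture lay lower by 0.36 and in experiments 2 and 1 it lay higher, by 0.13 and 0.26.

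The fitted differences of the NR4A receptors from experiment 1 were larger than those of Egr1, as were those of every other member. Egr1 had the smallest of the 8 genes in both comparisons, and whether the members differ in size was not tested. Nr4a1 (Nur77), known for its part in T cell death and in fuel metabolism, had 11.72 in irradiated and 12.09 in control culture 3, 11.61 and 11.63 in experiment 2, and 9.5 and 9.28 in experiment 1. It was higher than in experiment 1 by 2.52 ± 0.15 in experiment 3 (limma adjusted p = 0.00129) and by 2.23 ± 0.15 in experiment 2 (adjusted p = 0.00511). Nr4a2 (Nurr1), required for midbrain dopamine neurons, had 11.55 in irradiated and 12.14 in control culture 3, 11.79 and 11.75 in experiment 2, and 9.14 and 9.18 in experiment 1. Control culture 3 was the highest array, and irradiated culture 3 lay below both cultures of experiment 2. Nr4a3 (Nor1), the third receptor of the family, had the same order in experiments 3 and 2. It had 10.22 in irradiated and 10.98 in control culture 3, 10.67 and 10.4 in experiment 2, and 8.48 and 8.36 in experiment 1. Its difference between the cultures of experiment 3, -0.76, was the largest of any of the 8 genes in any pair, and its differences of 2.18 ± 0.24 (experiment 3 minus 1) and 2.12 ± 0.24 (experiment 2 minus 1) had the largest SE.

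Ier2, a nuclear protein gene, had 12.03 in irradiated and 11.84 in control culture 3, 11.5 and 11.58 in experiment 2, and 9.26 and 9.3 in experiment 1. It had the lowest p of the 8 in both comparisons with experiment 1, with differences of 2.66 ± 0.11 for experiment 3 (limma adjusted p = 0.000443) and 2.26 ± 0.11 for experiment 2 (adjusted p = 0.00302). Ier3 (IEX-1), a regulator of cell survival that also responds to NF-kB, had 12.26 in irradiated and 12.39 in control culture 3, 11.76 and 11.47 in experiment 2, and 8.94 and 9.18 in experiment 1. Its 3 experiments did not overlap. At 3.27 ± 0.14 (experiment 3 minus 1) it had the largest difference of the 8 in that comparison. Both arrays of experiment 3 lay above both of experiment 2 in 6 of the 8 genes, all but Nr4a2 and Nr4a3, where 18.3% of all probe sets showed this. For experiment 3 minus 2 it also had the largest difference, 0.71 ± 0.14, with an unadjusted p of 0.00252 that did not pass (adjusted p = 0.269). Egr2 (0.37 ± 0.10) and Ier2 (0.40 ± 0.11) were the other members with an unadjusted p under 0.05 there, and neither passed (adjusted p = 0.377 for both).

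**Figure D2:**
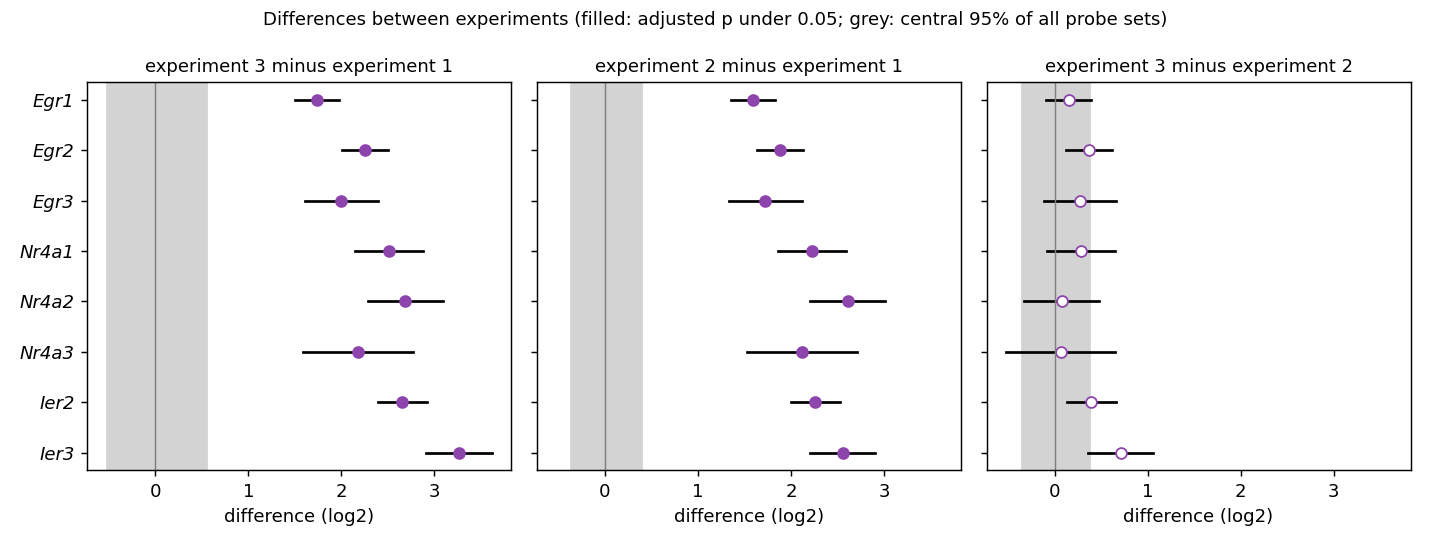
Differences between experiments on the log2 scale for the 8 genes, with 95% intervals of the fit over 2 cultures per experiment, filled circles for adjusted p under 0.05 and a grey band for the central 95% of all 45037 probe sets. All 8 genes lie above the band in both comparisons with experiment 1, and none is filled for experiment 3 minus experiment 2.

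Experiment took 94.9% to 99.8% of each gene's sum of squares over the 6 arrays, with a median of 99.1%, against a median of 50.5% over all probe sets. In control cultures alone the 8 genes lay 1.65 to 3.21 higher in experiment 3 and 1.55 to 2.57 higher in experiment 2 than in experiment 1, so the gap was present without irradiation. All 4 arrays of experiments 3 and 2 lay above both arrays of experiment 1 for 8 of 8 genes. Over all probe sets both arrays of experiment 3 lay above both of experiment 1 in 21.7%, and both of experiment 2 did in 19.3%. Ranked by size among 45037 probe sets, the members' differences held places 22 (Ier3) to 148 (Egr1) for experiment 3 minus 1 and 13 (Nr4a2) to 82 (Egr1) for experiment 2 minus 1. When any 1 of the 6 arrays was left out, 1 experiment kept 1 culture and 1 residual degree of freedom remained. No test result for single genes is given here for those fits. The members' differences then lay between 1.67 and 3.43 for experiment 3 minus 1 and between 1.53 and 2.79 for experiment 2 minus 1.

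Other measures also differed between the experiments. As a measure of RNA integrity, the 3′ probe set of Gapdh stood above its 5′ probe set by -0.01 in irradiated and -0.03 in control culture 3, by -0.03 and -0.05 in experiment 2, and by 0.23 and 0.19 in experiment 1. For Actb the same difference was 0.62 in irradiated and 0.72 in control culture 3. It was 0.61 and 0.62 in experiment 2, and 0.76 and 0.75 in experiment 1. The spike-in probe sets averaged 11.4 in control culture 3 and 10.82 to 10.99 on the other 5 arrays. Hspa1a, a heat shock gene named after its values were seen, had 12.35 in irradiated and 12.7 in control culture 3, 9.06 and 8.83 in experiment 2, and 5.63 and 5.71 in experiment 1. In bulk RNA a gene expressed by fewer cells and a gene expressed less per cell cannot be told apart. Of the markers of the labelled mesenchymal stem cell, 6 of 7 measured lay at or above the median probe set (4.84), with Thy1 below it, and 5 of 6 fat cell and 7 of 7 macrophage and leukocyte markers did too. So did 2 of 2 osteoblast, 2 of 3 chondrocyte, 2 of 4 neuronal, 2 of 4 skeletal muscle, 1 of 4 endothelial and 1 of 4 epithelial markers. The median splits all probe sets evenly by definition, so these counts do not identify cell types. The mean level of the macrophage list lay between 10.84 and 11.11 on all 6 arrays and that of the fat cell list between 10.96 and 11.15. By the test 0 markers of the mesenchymal stem cell, fat cell and macrophage lists differed between experiments. Among 21 measured markers of 6 other cell types, Sox9 (2.71), Tubb3 (2.00) and Pecam1 (0.56) were higher in experiment 3 than in experiment 1 on the log2 scale, and Pecam1, an endothelial marker, lay between 2.58 and 3.21 on all arrays. In that comparison 1.87% of all probe sets passed as higher and 1.18% as lower. The Gapdh measure separated experiment 1 from the others and cannot be told apart from experiment. The spike-in mean set only control culture 3 apart. The parts of RNA integrity and of the spike-in level in the early gene differences were not tested.

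The study's own question was whether irradiation changed expression against the adjacent control, and for these 8 genes the differences were small. The fitted irradiated minus control difference was 0.04 ± 0.08 for Egr1, 0.01 ± 0.08 for Egr2 and 0.01 ± 0.13 for Egr3. It was -0.06 ± 0.12 for Nr4a1, -0.20 ± 0.14 for Nr4a2 and -0.12 ± 0.20 for Nr4a3, and 0.02 ± 0.09 for Ier2 and -0.03 ± 0.12 for Ier3 (SE, n = 3 pairs). Limma adjusted p lay between 0.931 and 0.993, and 0 of the 8 had an unadjusted p under 0.05, against 2237 of all probe sets. The median of the 8 was -0.0083, against 0.0033 over all probe sets. For 8 of 8 genes the 95% interval stayed within a 2-fold change either way, and for 7 within 1.5-fold, the exception being Nr4a3, whose interval ran from -0.60 to 0.36. Of all 45037 probe sets, 45005 stayed within 2-fold and 43754 within 1.5-fold, so these counts are near those of the arrays as a whole. The spread of each gene within an arm, which holds the gap between experiments, was larger than its fitted difference. Ier3, for example, averaged 10.99 ± 1.79 in irradiated and 11.01 ± 1.65 in control cultures (SD, n = 3 each). With 3 pairs an exact two-sided sign-flip test cannot give a p under 0.25.

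**Figure D3:**
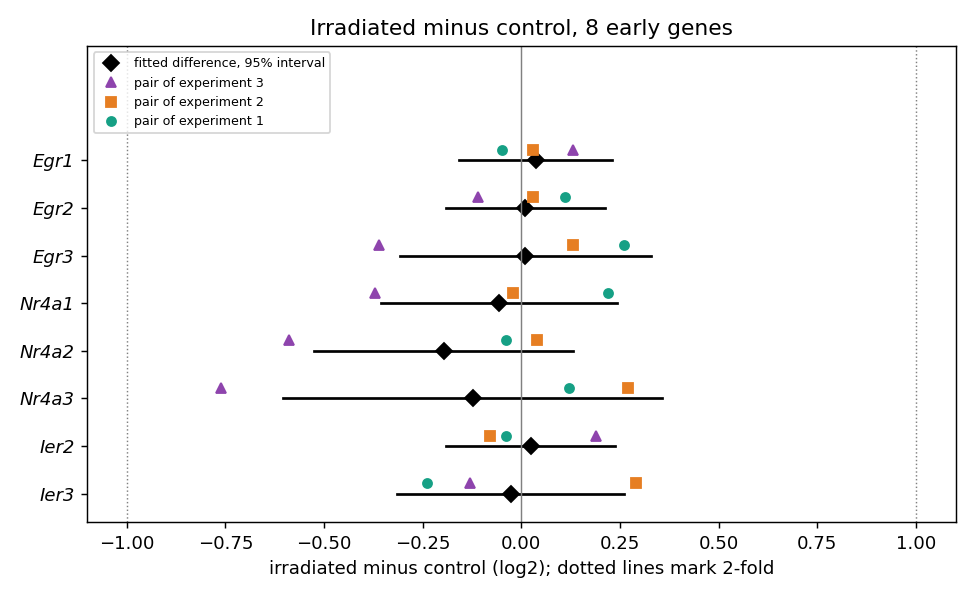
Irradiated minus control on the log2 scale for each of the 8 genes, with the fitted difference and its 95% interval as black diamonds and bars and the 3 pair differences as coloured marks. Each interval crosses 0 and stays inside the dotted 2-fold lines, and the purple triangle of experiment 3 lies lowest for Nr4a2 at -0.59 and Nr4a3 at -0.76.

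None of the 8 genes moved in the same direction in all 3 pairs, where 23.8% of all probe sets did. In experiment 3, 6 of the 8 were lower in the irradiated culture, with a median difference of -0.25, against medians of 0.04 in experiment 2 and 0.04 in experiment 1. Over all 45037 probe sets 21781 were lower in the irradiated culture of experiment 3, with a median of 0. The negative pair differences of experiment 3 were -0.76 for Nr4a3, -0.59 for Nr4a2, -0.37 for Nr4a1, -0.36 for Egr3, -0.13 for Ier3 and -0.11 for Egr2, and the positive ones 0.19 for Ier2 and 0.13 for Egr1. A single pair has no replicate, so these differences were not tested. Control culture 3 also had the highest spike-in mean, whose part in this was not tested. Without replicate 3 the fitted differences of Nr4a1 and Nr4a3 were 0.10 and 0.20 and that of Nr4a2 was 0.

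The probe sets of a gene did not all show the gap between experiments. By the test 1.87% of all probe sets were higher in experiment 3 than in experiment 1, and 0.473% in experiment 2. Of the 17 probe sets of the members, 12 were higher in both, and they covered all 8 genes. The other 5 were 1 of 2 for Egr3, 2 of 6 for Nr4a2 and 2 of 3 for Nr4a3, with differences between -0.04 and 0.46 for experiment 3 minus 1. Their mean levels lay between 2.99 and 5.95, against 8.62 to 13.05 for the 12, and the median of all probe sets was 4.84. The dim Egr3 probe set, for instance, had 6.05 in irradiated and 5.79 in control culture 3, 6.08 and 5.85 in experiment 2, and 5.87 and 6.04 in experiment 1. Averaging all probe sets of a gene lowered the experiment 3 minus 1 difference to 0.98 for Egr3, 1.78 for Nr4a2 and 0.88 for Nr4a3, and the experiment 2 minus 1 difference to 0.87, 1.66 and 0.90 for the same genes, all still past the test. Between irradiated and control cultures 1 of the 17 had an unadjusted p under 0.05, against 2237 of all 45037 probe sets. That count is near the share of all probe sets. The probe set concerned was a dim Nr4a2 probe set at -0.44 ± 0.18 (limma adjusted p = 0.929). Its control culture 3 stood at 6.27, and the other 5 arrays lay between 5.21 and 5.54.

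**Figure D4:**
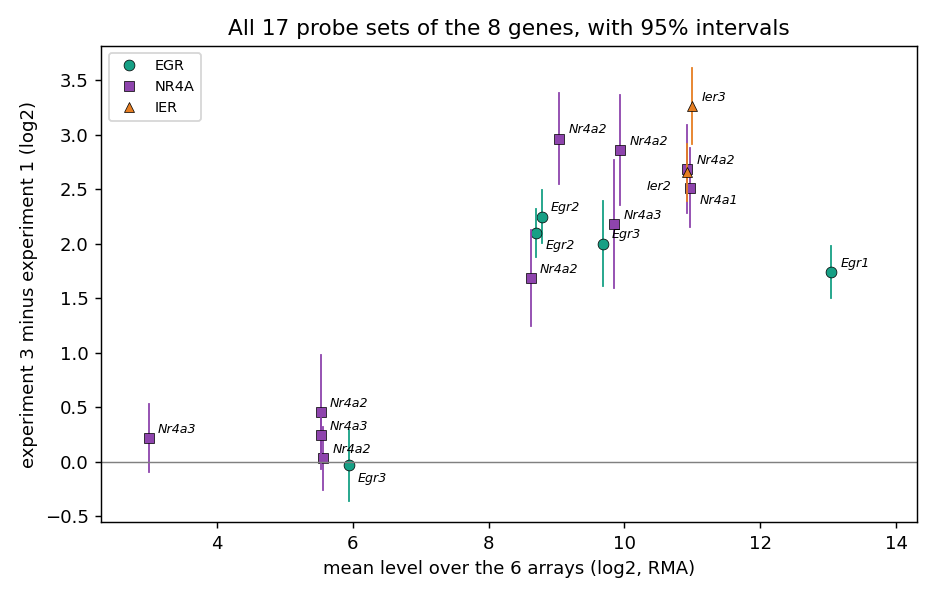
Experiment 3 minus experiment 1 (log2, with 95% intervals) against the mean log2 level over the 6 arrays for all 17 probe sets. The 12 probe sets with a mean of 8.62 or more lie between 1.69 and 3.27, and the 5 with a mean of 5.95 or less lie between -0.04 and 0.46.

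Other immediate early factors were also higher in experiments 3 and 2. Of 20 other early genes, 16 were higher in experiment 3 than in experiment 1, 12 were higher in experiment 2 than in experiment 1 and 0 were lower in either, with medians of 2.00 and 1.32 against -0.01 over all probe sets. The shares of all probe sets that passed were 1.87% higher and 1.18% lower for experiment 3 minus 1. For experiment 2 minus 1 they were 0.473% and 0.0466%. Fosb, an AP-1 subunit, had 9.92 in irradiated and 9.96 in control culture 3, 8.4 and 8.74 in experiment 2, and 4.11 and 4.37 in experiment 1, a difference of 5.70 ± 0.11 for experiment 3 minus 1 (limma adjusted p = 0.000106). Klf4, a zinc finger factor, differed by 2.86 ± 0.10 in the same comparison. Fosb and the stress-induced factor gene Atf3 passed between experiments 3 and 2 (1.37 ± 0.11 and 1.84 ± 0.13, adjusted p = 0.0420 and 0.0347), which none of the 8 members did. In that comparison 0.0355% of all probe sets passed as higher. Whether the differences of these other early genes are larger than those of the members was not tested.

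Genes that dampen the early response differed in the same comparisons. Of 20 feedback genes 12 were higher in experiment 3 and 7 in experiment 2 than in experiment 1, and 0 were lower, with medians of 0.87 and 0.53. Dusp1, a phosphatase that switches off MAP kinases, differed by 2.16 ± 0.10 for experiment 3 minus 1 (limma adjusted p = 0.000603), and Zfp36, which speeds the decay of early mRNAs, by 1.75 ± 0.12. Of 19 measured kinase, SRF and CREB pathway genes 0 passed in either comparison with experiment 1. That is near the background, where 1.87% of all probe sets passed as higher and 1.18% as lower for experiment 3 minus 1, and 0.473% and 0.0466% for experiment 2 minus 1. The medians of the list were -0.16 for experiment 3 and -0.11 for experiment 2. The smallest p values among them belonged to Rps6ka3, a kinase downstream of ERK (-0.33 ± 0.09, adjusted p = 0.135), and Mrtfb, an SRF coactivator (-0.36 ± 0.10, adjusted p = 0.141), both for experiment 3 minus 1. Of 8 measured partners and corepressors 1 was higher, Pcna (0.51 ± 0.09, adjusted p = 0.0488), and 1 was lower, the general factor gene Sp1 (-0.63 ± 0.10, adjusted p = 0.0306), in experiment 3 than in experiment 1, and 0 of 8 passed for experiment 2 minus 1.

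Of 10 measured genes described elsewhere as EGR1 targets, 2 were higher in each comparison with experiment 1, Ptgs2 and Vegfa. Of all probe sets, 1.87% passed as higher for experiment 3 minus 1 and 0.473% for experiment 2 minus 1. Ptgs2, the inducible prostaglandin synthase, had 11.8 in irradiated and 12.32 in control culture 3, 11.71 and 11.56 in experiment 2, and 7.37 and 7.58 in experiment 1. Its difference was 4.59 ± 0.16 for experiment 3 minus 1 (limma adjusted p = 0.00029) and 4.16 ± 0.16 for experiment 2 minus 1 (adjusted p = 0.00276). Vegfa, the vessel growth factor gene, differed by 1.27 ± 0.09 and 1.14 ± 0.09 in these comparisons. The other 8 did not pass, and the median of the 10 was 0.32 for experiment 3 minus 1.

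Between irradiated and control cultures 0 genes of these 5 lists passed. The medians were -0.09 for the other early factors, -0.04 for feedback genes, 0.0033 for the pathway genes, 0.0033 for partners and corepressors, and -0.05 for EGR1 targets. Negative differences were found in 18 of 20 other early factors, 13 of 20 feedback genes, 8 of 19 pathway genes, 3 of 8 partners and 7 of 10 targets, and in 21458 of all 45037 probe sets. Genes of a list were measured on the same 3 pairs, so these counts are not independent. The mean level of the other early factors was 10.27 in irradiated and 10.44 in control culture 3. It was 9.77 and 9.79 in experiment 2, and 8.35 and 8.41 in experiment 1. Unadjusted p was under 0.05 only for Dusp2, a nuclear MAP kinase phosphatase (0.30 ± 0.09), and Klf2, a factor known from vessel walls (-0.25 ± 0.09), and the limma adjusted p of both was 0.929. Dusp2 was higher in the irradiated culture in 3 of 3 pairs and Klf2 was lower in 3 of 3. Of all 45037 probe sets, 2237 had an unadjusted p under 0.05 and 23.8% moved in the same direction in all 3 pairs. Both genes were named for their small p over these same pairs, so their shared direction adds no support.

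**Figure D5:**
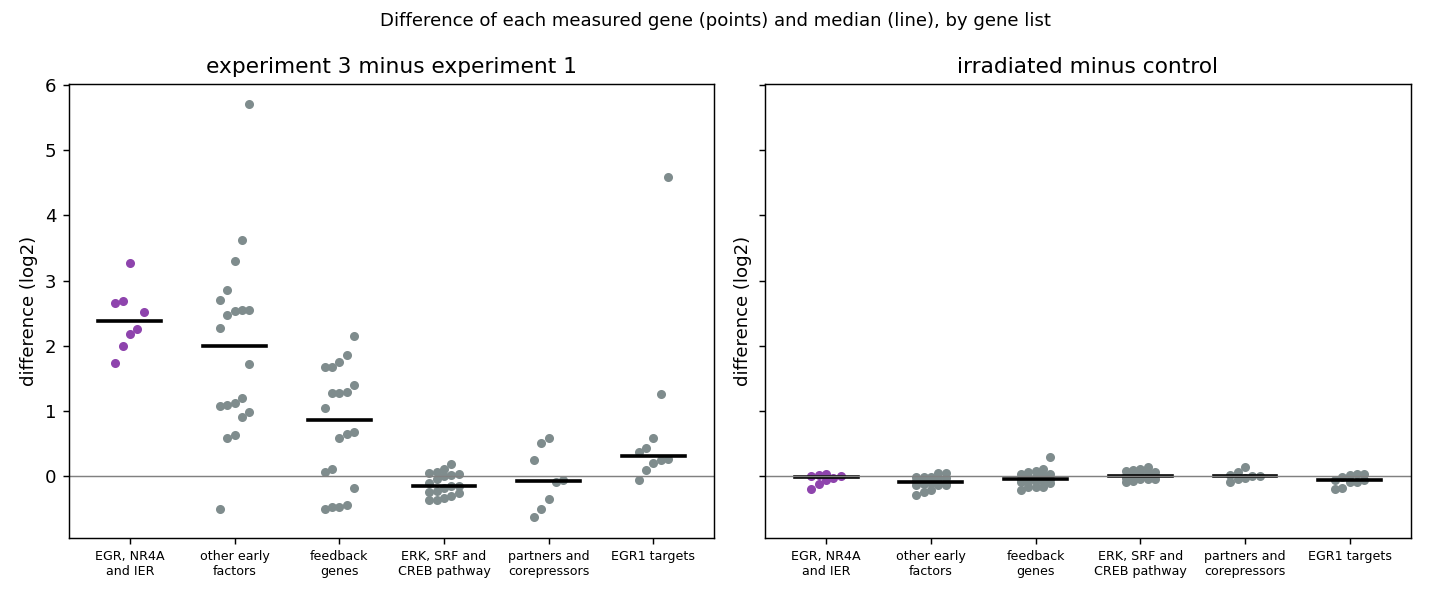
Differences of each measured gene (points) with the median of its list (line) for experiment 3 minus experiment 1 on the left and irradiated minus control on the right, both on the log2 scale. The 8 members have a median of 2.38 on the left and -0.0083 on the right, and the pathway genes have -0.16 and 0.0033.

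The pattern of the 8 members over the 6 arrays was close to that of several other genes. Among 467 genes with a range of at least 1 on the log2 scale, those closest to the mean of the 8 centred members were Tcim, Klf4, Ptgs2, Vegfa, Csrnp1 and Pcf11, with Pearson r between 0.996 and 0.999 over 6 arrays. Tcim had 10.6 in irradiated and 11 in control culture 3, 10.49 and 10.45 in experiment 2, and 7.92 and 7.96 in experiment 1. The closest single gene was Pcf11 for Egr1, Csrnp1 for Egr2, Errfi1 for Egr3, Tcim for Nr4a1, Mdm2 for Nr4a2, Gm13889 for Nr4a3, Btg2 for Ier2 and Gzmm for Ier3, each with r between 0.997 and 1.00. Gm13889 shared with Nr4a3 the high control and lower irradiated culture of experiment 3, at 8.14 in the irradiated and 9.08 in the control culture. The 6 arrays share 3 experiments and separate into experiment 1 and the others, so r here mainly reflects that gap.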

How the data were processed

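RNA of 6 cultures was measured on 1 array each, with 200 ng labelled from oligo-dT primers per the labels' protocols. Each deposited value is a log2 level, and the submitters' processing notes name RMA, affy and limma with neither versions nor roles. RMA makes the arrays' distributions equal, so differences are relative to the other transcripts. No base is stated for the logarithm, and 2, which RMA gives, was assumed. Scanner files were not used here, and no detection calls were at hand.

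Of 45101 probe sets, 64 Affymetrix controls were left out. In the platform annotation 34945 of the others have 1 gene symbol, 932 several and 9160 none here. Symbols stand as annotated. The fit used limma 3.58.1 (R 4.3.3, lmFit and eBayes) with experiment and irradiation as terms, two-sided p-values, Benjamini-Hochberg adjustment over 45037 probe sets, a threshold of 0.05 and no filter on level. Cultures were paired by experiment because the series design says each experiment had its own control. In experiments 3, 2 and 1 the paired arrays' deviations from the group means correlated over probe sets at 0.50, 0.14 and 0.63. Irradiated culture 2 correlated at 0.15 with control culture 3, no less than with its own control, so for experiment 2 the pairing rests on the design alone. Tests between experiments rest on 2 cultures each, with the spread left within pairs as their error, and the number of arrays limits the precision.

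Members, lists and the rule for named genes were chosen with earlier results of these data known. The rule gives every member probe set and allows the naming of the 2 genes of each list with the smallest p for irradiation and for experiment 3 minus 1, and by Pearson r the 6 genes closest to the mean of the members and the 3 closest to each. Not all genes it allows are named. Fosb and Atf3 for experiment 3 minus 2, Hspa1a, Tmem182 and the markers Sox9, Tubb3, Pecam1 and Thy1 were named after their values were seen. Promoter windows came from RefSeq. Alternatives were renormalization, median centring, a level filter, another variance prior, array weights, no or a random block, no irradiation term, probe set means, and leaving out experiments or arrays.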

Additional observations from a re-analysis of the deposited data

How the results depend on the processing

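The 8 members passed for experiment 3 minus 1 and experiment 2 minus 1 under the 7 settings that kept all 6 arrays, and 0 passed for irradiation under any of 11 alternatives, no replicate block and a random replicate block included. Over these the members' irradiation differences lay between -0.32 and 0.20. Probe sets called for experiment 2 minus 1 numbered 374 with the level filter and 742 with an intensity trend and robust prior, against 234. For experiment 3 minus 1 they numbered 2513 (1207 higher, 1306 lower) and 3698 (1643 higher, 2055 lower), against 1374 (841 higher, 533 lower), so the balance turned to lower. For experiment 3 minus 2 they numbered 64 and 315, and 52 with no irradiation term, against 16. Leaving out any 1 array gave 0 calls in each of these comparisons, for all probe sets and for the members, with 1 residual degree of freedom. With the trend and robust prior Ier3 alone of the members passed for experiment 3 minus 2 (1 of 8, adjusted p = 0.0226), and 1 probe set passed for irradiation, that of Tmem182, named after its value was seen. With no replicate block 0 probe sets passed for irradiation and 1297 had an unadjusted p under 0.05. Under median centring the irradiation difference was -0.01 for Egr2 and for Egr3, under array weights -0.0013 for Ier2, and with probe set means the experiment 3 minus 2 difference of Nr4a3 was -0.025. Without 1 experiment the irradiation differences ranged from -0.01 to 0.08 for Egr1, -0.04 to 0.07 for Egr2, -0.12 to 0.20 for Egr3, -0.20 to 0.10 for Nr4a1, -0.32 to 0 for Nr4a2, -0.32 to 0.20 for Nr4a3, -0.06 to 0.075 for Ier2 and -0.19 to 0.08 for Ier3. Without 1 array the experiment 3 minus 2 differences ranged from -0.0025 to 0.55 for Egr3, -0.22 to 0.37 for Nr4a2 and -0.41 to 0.54 for Nr4a3. The cause of these changes was not tested. Fits without an array or an experiment also rest on fewer samples.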

Other observations

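Some genes close in pattern to single members are known for other roles than the early response. Srxn1 and Txnrd1, redox genes known as NRF2 targets, were the 2 genes next to Gm13889 in likeness to Nr4a3 (r = 0.998 for both over 6 arrays). Srxn1 had 10.2 in irradiated and 10.96 in control culture 3, 10.73 and 10.41 in experiment 2, and 8.6 and 8.64 in experiment 1. Txnrd1 had 11.2 in irradiated and 11.57 in control culture 3, 11.42 and 11.27 in experiment 2, and 10.55 and 10.47 in experiment 1. Both, like Nr4a3, were lower in the irradiated culture of experiment 3 and higher in that of experiment 2. Mdm2, the p53 inhibitor gene and the closest gene to Nr4a2, had 11.94 in irradiated and 12.16 in control culture 3, 11.99 and 12.01 in experiment 2, and 11.03 in both cultures of experiment 1. Btg2, a growth-arrest gene and the closest to Ier2, had 12.48 in irradiated and 12.39 in control culture 3, 11.87 and 12.19 in experiment 2, and 9.76 and 9.71 in experiment 1. These genes were chosen by their likeness over the same arrays, so their values are a description.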
